A study of Homo sapiens with 4 samples.

Results

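The genes described here encode the machinery that cells use to enter, carry out and leave mitosis. They were taken as a list of 47 genes by function: cyclins, mitotic kinases, kinesins, kinetochore and spindle proteins, and factors of the anaphase ligase and of cytokinesis. Their transcripts were found by transcript identifier in the deposited table and summed per gene, and all 47 were present among 22017 genes, of which 16523 passed a filter on low values. All 47 members passed that filter, which asks for a mean of at least 10 normalized reads over the 4 libraries. The highest member mean was 8287 (TOP2A), and SPC25 had the lowest.

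Poly(A)-selected RNA came from U87, an established human glioblastoma cell line, 48 h after lipofection with 50 nM of a short RNA. Of the 4 libraries, 2 had received a mimic of tRF-3009a, a fragment cut from a transfer RNA, and 2 had received ssGL2, the single strand of an siRNA against luciferase, as control. All 4 carried the lipid and an RNA oligonucleotide, and no untransfected cells were analysed here. The labels number the libraries 1 and 2 within each treatment without saying what a number stands for or whether the cultures were separate, so p-values measure the spread between these libraries, which may be technical. Below, the replicate 1 libraries are control 1 and mimic 1, and the replicate 2 libraries are control 2 and mimic 2. Standard errors and p-values between numbers therefore measure the gap between the control and mimic library of a number. No number was repeated within a treatment, so the spread between repeats of a number was not measured.

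Cyclins bound to CDK1 drive entry into mitosis, and their kinase activity is switched on by CDC25 phosphatases. Kinesin motors and microtubule proteins then build the spindle, kinetochores attach chromosomes to it, and checkpoint kinases hold back the anaphase-promoting complex (APC/C), a ubiquitin ligase, until all chromosomes are attached. Most of these genes are transcribed in a wave before mitosis, and their RNA is widely used as a mark of dividing cells. In a bulk sample, fewer cells in this phase and less RNA per cell cannot be told apart.

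The libraries stood apart by replicate number rather than by treatment. Recovered whole reads ranged from 28871931 to 33862235 per library, the replicate 1 libraries holding 30152169 (control) and 33862235 (mimic), and the replicate 2 libraries 28871931 and 33232634. Within each treatment the replicate 2 library had fewer, and the part of this in the results was not tested. Across all genes tested, limma called 8298 genes between the numbers (5360 without mimic replicate 2) and 0 between the treatments. Mesenchymal glioma markers were high in every library, with VIM at 121239 to 276546 and CD44 at 17935 to 41466. NES, of the same list, was far lower, at 888 and 911 in replicate 1 and 187 and 185 in replicate 2. GFAP, the astrocyte filament gene, was at 12.5 to 29.7. The summed levels of marker lists also differed by number, except for immune markers, where the numbers overlapped. Glioma and mesenchymal markers summed to 443378 to 495844 in replicate 1 and 235279 to 254857 in replicate 2, and neuron markers, mainly TUBB3, to 6935 to 8297 and 1883 to 2375. Endothelial markers summed to 165 to 192 and 44.9 to 60.5, epithelial markers, where ESRP1 alone was called higher and EPCAM was called lower, to 301 to 373 and 518 to 522, and immune markers, nearly all CD68, to 7936 to 10230 and 7246 to 8370. The leukocyte gene PTPRC was at most 6.72 and CD14 was listed at 0 in control 2. The part of these shifts in the results below was not tested.

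Many promoters of mitotic genes share a pair of short elements, a CCAAT box bound by NF-Y and, closer to the start, a cell cycle homology region, through which the DREAM and MMB complexes repress and later activate them. Because the 47 genes moved together in the data below, 200 bases before the start are shown for 6 of them. Among the members picked by the naming rule given with the processing, these had the largest differences and a homology core. Other members with a core had differences as large, and KIF15, at -2.88, exceeded all 6. The sequences are RefSeq promoters of build GRCh38.p14, written 5′ to 3′ in the direction of the gene, and lie at chr10:128126424-128126623 on the minus strand for MKI67, chr7:36389662-36389861 on the plus strand for ANLN, chr1:197146670-197146869 on the minus strand for ASPM, chr17:40417897-40418096 on the minus strand for TOP2A, chr16:23678689-23678888 on the plus strand for PLK1 and chr1:43358781-43358980 on the plus strand for CDC20. Capitals mark TTTGAA and TTCGAA, the homology core, and CCAAT, each on either strand, where TTTGAA reads TTCAAA and CCAAT reads ATTGG.
MKI67: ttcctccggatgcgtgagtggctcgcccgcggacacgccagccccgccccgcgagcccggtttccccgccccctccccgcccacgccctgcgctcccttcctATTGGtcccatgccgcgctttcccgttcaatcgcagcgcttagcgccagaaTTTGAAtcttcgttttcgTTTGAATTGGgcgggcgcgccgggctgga
ANLN: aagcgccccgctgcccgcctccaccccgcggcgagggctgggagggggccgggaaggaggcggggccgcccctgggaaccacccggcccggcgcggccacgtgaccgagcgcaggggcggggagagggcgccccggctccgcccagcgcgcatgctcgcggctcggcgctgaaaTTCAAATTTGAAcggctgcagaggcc
ASPM: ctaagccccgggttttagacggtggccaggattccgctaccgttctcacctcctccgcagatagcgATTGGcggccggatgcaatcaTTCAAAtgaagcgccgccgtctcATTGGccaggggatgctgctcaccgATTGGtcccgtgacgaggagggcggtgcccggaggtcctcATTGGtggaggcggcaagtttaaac
TOP2A: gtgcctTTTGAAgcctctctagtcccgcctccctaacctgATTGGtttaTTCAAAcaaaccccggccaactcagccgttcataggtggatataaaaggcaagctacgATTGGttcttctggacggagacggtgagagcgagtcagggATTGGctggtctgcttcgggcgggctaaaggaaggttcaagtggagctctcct
PLK1: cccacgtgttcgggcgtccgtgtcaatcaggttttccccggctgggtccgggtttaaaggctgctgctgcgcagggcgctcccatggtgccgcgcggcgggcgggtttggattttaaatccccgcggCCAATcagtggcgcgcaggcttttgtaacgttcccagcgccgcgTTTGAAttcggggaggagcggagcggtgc
CDC20: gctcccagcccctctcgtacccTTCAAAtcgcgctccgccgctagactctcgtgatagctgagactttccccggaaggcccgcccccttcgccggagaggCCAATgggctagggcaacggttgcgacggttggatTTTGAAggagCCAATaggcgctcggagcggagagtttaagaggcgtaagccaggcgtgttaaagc

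In the MKI67 promoter the core began 47 and 29 bases before the start, and the second match shared 1 base with a reversed CCAAT box. PLK1 had the core 29 bases and the CCAAT box 73 bases before the start. ANLN held 2 cores side by side, 26 and 20 bases before the start, and 0 CCAAT boxes in these 200 bases. In CDC20 the nearer core began 65 bases before the start, and in ASPM and TOP2A the nearest lay 113 and 151 bases before it. In these genes and in MKI67 a CCAAT box lay nearer the start than any core, unlike in PLK1. It began 55 bases before the start in CDC20, 25 in ASPM, 53 in TOP2A and 24 in MKI67.

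RefSeq promoters, which run from 250 bases before to 50 bases after a start, matched 41 of the 47 members by symbol, with 51 windows in all. AURKA, BIRC5, RACGAP1, TPX2, TTK and UBE2C had no entry. TTTGAA or TTCGAA stood in 36 of the 51 windows (70.6%), against 16.4% of all 35116 promoters and 12.5% of the 16990 promoters of genes tested. CCAAT stood in 39 windows (76.5%), against 34.6% of all promoters and 35.2% of those of genes tested. Both stood together in 58.8% of the members' windows and in 6.38% of all promoters. Some windows of a gene overlap, so they are not independent.

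The matches also had preferred positions. From 50 to 25 bases before the start, 19.6% of the members' windows had a homology core beginning there, against 1.51% of all promoters. In the last 25 bases 21.6% did, against 1.26%. The first 25 bases after the start held it in 19.6%, against 1.43%, so the preferred positions spanned the start. The CCAAT box peaked further upstream, from 75 to 50 bases before the start, in 45.1% of the members' windows and 7.62% of all promoters. These are letter matches and not measured binding.

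**Figure D1:**
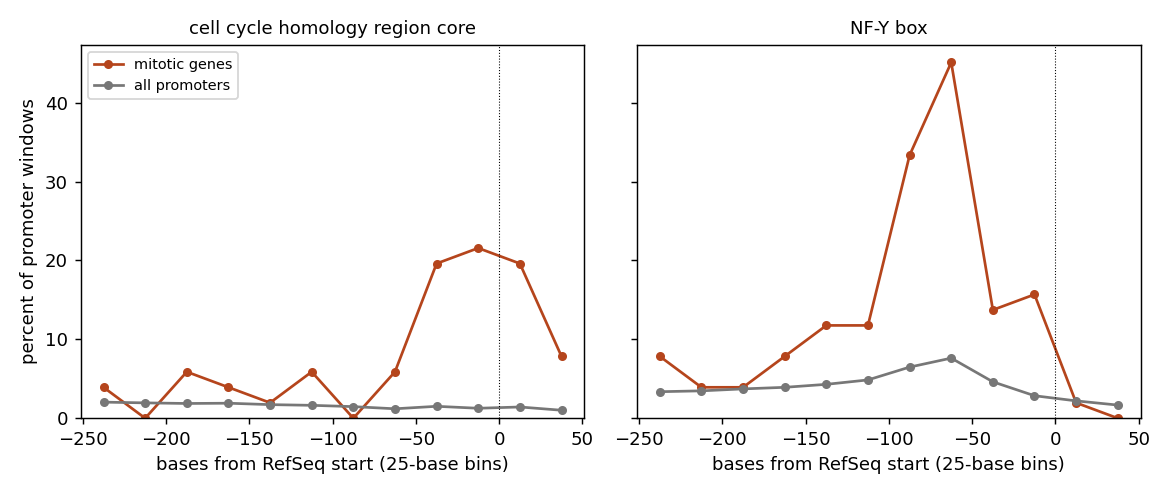
Percent of promoter windows (y axis) with a match that begins in each 25-base bin, by distance in bases from the RefSeq start (x axis), for 51 windows of mitotic genes and 35116 of all genes. The left panel shows the homology core, at 19.6% and 21.6% in the last bins before the start and 19.6% in the first bin after it. The right panel shows the NF-Y box, at 45.1% in the bin from 75 to 50 bases before the start.

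Between the replicate numbers, all 47 mitotic genes were lower in the replicate 2 libraries. By limma with Benjamini-Hochberg adjustment over all genes, all 47 were called lower and 0 higher, with adjusted p from 4.89e-08 to 0.00198, where 24.2% of the genes tested were called lower. Each of the 47 genes had both replicate 2 libraries below both replicate 1 libraries, as had 37.3% of genes tested. Their median log2 difference was -1.84, a 3.59-fold lower level, beside a median of 0.0078 over all genes tested. Of the 47, 43 were over 2-fold and 16 over 4-fold lower, while 9.93% of genes tested were over 2-fold lower. The median member lay at the lowest 2.61% of all genes.

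Summed over the list, the normalized reads came to 185945 in control 1 and 200012 in mimic 1, and to 57877 in control 2 and 53703 in mimic 2. That was 0.613% and 0.678% of all reads in matched genes, against 0.185% and 0.176%. The difference was seen under both treatments, with a median of -1.67 between the control libraries and -1.93 between the mimic libraries.

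**Figure D2:**
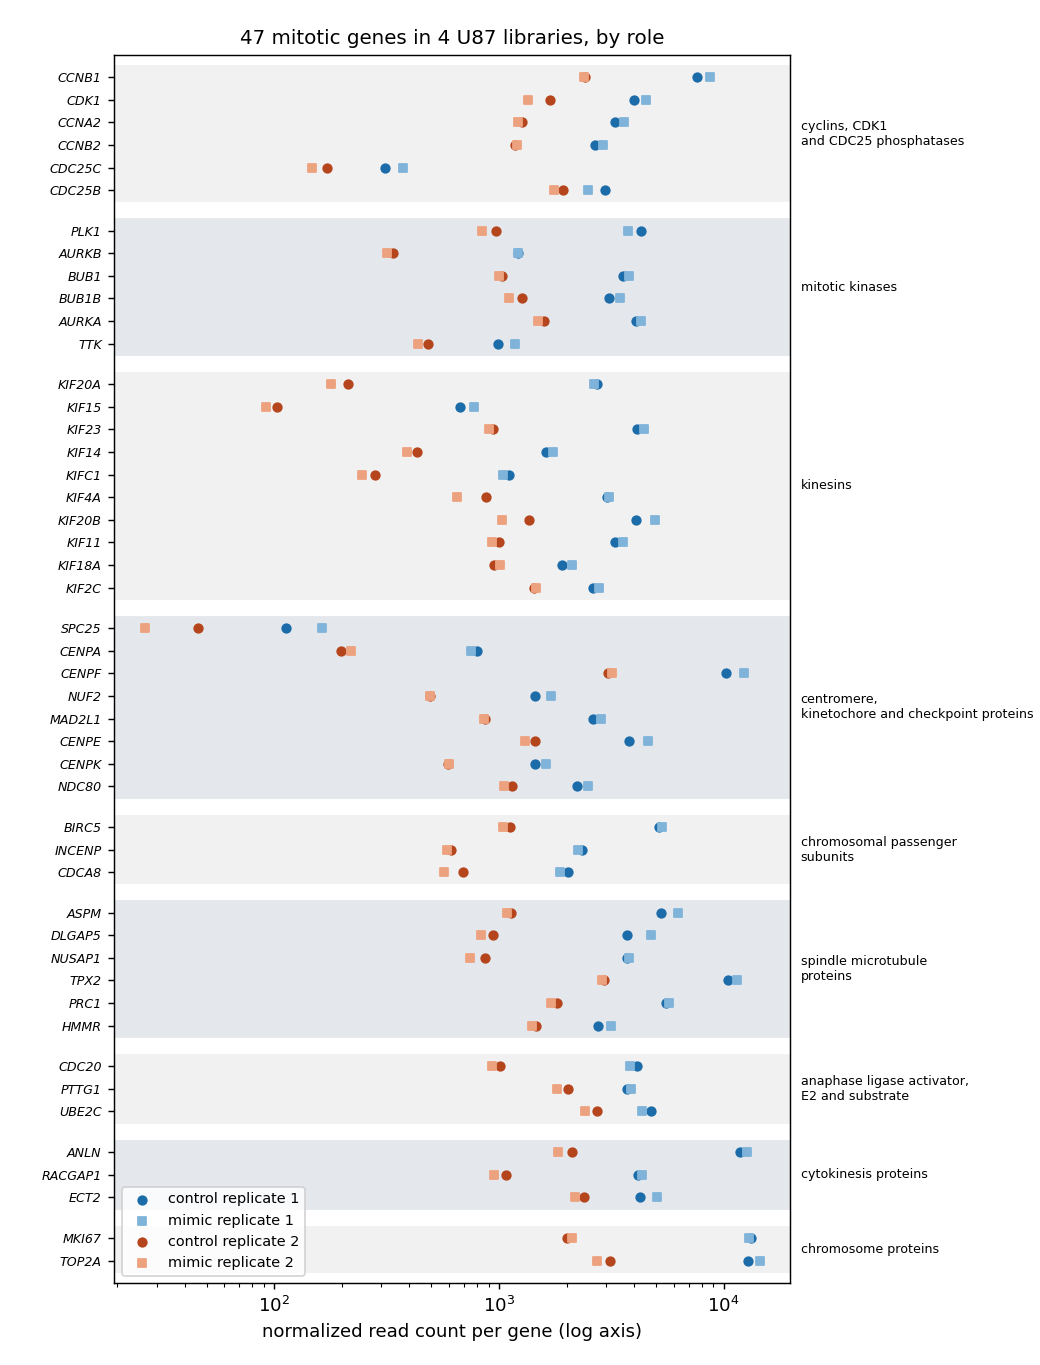
Normalized read count of each of the 47 genes (x axis, log scale) in control 1, mimic 1, control 2 and mimic 2, grouped by role (y axis). Circles are control and squares mimic libraries, and in each row both replicate 1 libraries (blue) lie to the right of both replicate 2 libraries (orange).

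Cyclins, CDK1 and its phosphatases had a median log2 difference of -1.35, with all 6 called lower. CCNB1, the B-type cyclin that activates CDK1 at entry into mitosis, had 7652 and 8659 normalized reads in replicate 1 (control, then mimic, here and below) against 2406 and 2391 in replicate 2. The replicate 2 values lay close together. The log2 difference was -1.76 ± 0.08 (SE, n = 2 per number, a control and a mimic library). CDK1 itself was at -1.49, and the cyclin genes CCNA2 and CCNB2 were at -1.47 and -1.23. CDC25B, a phosphatase that starts CDK1 activation, had the smallest difference of all 47 genes. Its values were 2968 and 2482 in replicate 1 and 1937 and 1757 in replicate 2. The log2 difference was -0.56 ± 0.10, with an adjusted p of 0.00198 by limma. CDC25C, its relative, was much less abundant, with 310 and 372 against 171 and 148.

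Mitotic kinases and checkpoint kinases were lower by a median of -1.66, and all 6 were called. PLK1, which acts in centrosome maturation, spindle assembly and cytokinesis, had 4304 and 3752 in replicate 1 and 967 and 841 in replicate 2. Its 4.45-fold lower level was the largest change among the kinases. AURKB, the catalytic subunit of the chromosomal passenger complex, followed at -1.89, and the checkpoint kinase gene BUB1 at -1.86. AURKA, the spindle pole kinase, and BUB1B, which encodes the checkpoint protein BUBR1, were at -1.44 and -1.47. TTK, the kinase that starts checkpoint signalling at kinetochores, had 991 and 1178 against 483 and 436, a log2 difference of -1.23 ± 0.12.

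The 10 kinesins spanned the widest range, from -3.77 to -0.90, with a median of -2.02, and all 10 were called lower. KIF20A, a motor of the central spindle needed for cytokinesis, had 2725 and 2645 in replicate 1, and 214 and 179 in replicate 2. This was a 13.7-fold lower level, the largest of the 47 genes, with a log2 difference of -3.77 ± 0.12. KIF15, a spindle motor that works beside KIF11, came next at 672 and 771 against 103 and 91.7. KIF23, the motor subunit of centralspindlin, was at -2.22, KIF14 at -2.03, the minus-end motor KIFC1 at -2.03 and the chromosome motor KIF4A at -2.01. KIF4A has a near-identical retrocopy, so its reads may be split. KIF20B and KIF11 were at -1.91 and -1.83. KIF18A, which dampens chromosome movements, and KIF2C, a microtubule depolymerase at centromeres, were at the other end. KIF2C had 2620 and 2778 against 1436 and 1456, a log2 difference of -0.90 ± 0.08.

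Among centromere, kinetochore and checkpoint proteins the median was -1.67, and all 8 were called lower within a narrower range of -1.92 to -1.10. CENPA, the histone variant that marks centromeres, had 797 and 749 against 197 and 219. CENPF, a large outer kinetochore protein, had 10245 and 12272 against 3070 and 3174, and the kinetochore motor gene CENPE was at -1.59. Subunits of the NDC80 complex, which binds microtubule ends, did not share 1 value: SPC25 was at -1.92 ± 0.32, NUF2 at -1.67 and NDC80 at -1.10 ± 0.10. SPC25 rested on few reads, with 112 and 163 in replicate 1 and 46.0 and 26.6 in replicate 2, so its error was the widest of the list. NDC80 had 2224 and 2498 against 1143 and 1058. The checkpoint protein gene MAD2L1 was at -1.66 and CENPK, of the inner kinetochore, at -1.35.

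The 3 other subunits of the chromosomal passenger complex, which corrects wrong attachments, were all called lower. BIRC5, which encodes survivin, had 5159 and 5323 against 1125 and 1048, a log2 difference of -2.27. The scaffold gene INCENP had 2350 and 2259 against 613 and 585, at -1.94, close to its kinase partner AURKB. CDCA8, which encodes borealin, had 2038 and 1867 against 691 and 570, at -1.63.

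Spindle microtubule proteins had a median of -2.07, with all 6 called lower. ASPM, which organises spindle poles, had 5246 and 6269 in replicate 1 and 1130 and 1089 in replicate 2, a 5.17-fold lower level. DLGAP5 and NUSAP1, which stabilise spindle fibres, were at -2.24 and -2.22. TPX2, the activator of AURKA, was at -1.91 and PRC1, the crosslinker of the central spindle, at -1.68. HMMR had 2749 and 3166 against 1458 and 1397, a log2 difference of -1.05 ± 0.09, the smallest of this group.

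Factors of the anaphase ligase differed widely among themselves. CDC20, the activator and checkpoint target of the APC/C, had 4136 and 3832 in replicate 1 against 1017 and 935 in replicate 2, a log2 difference of -2.03 ± 0.09. UBE2C, the ubiquitin-conjugating enzyme that works with the ligase, had 4777 and 4314 against 2733 and 2408, at -0.82 ± 0.09. PTTG1, which encodes securin, the inhibitor of separase and a substrate of the ligase, had 3713 and 3855 against 2038 and 1815, at -0.98 ± 0.09. PTTG1 and UBE2C have near-identical processed copies, so the values of both are uncertain.

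Cytokinesis and chromosome genes included the members with the most normalized reads, without adjustment for transcript length. ANLN, the anillin that scaffolds the contractile ring, had 11852 and 12710 in replicate 1 and 2115 and 1834 in replicate 2, a 6.23-fold lower level. RACGAP1, the other subunit of centralspindlin, had 4164 and 4334 against 1079 and 948, at -2.07 ± 0.09. ECT2, the exchange factor that RACGAP1 recruits to activate RHOA, had 4255 and 5034 against 2385 and 2178, at -1.02 ± 0.10. Thus the 2 centralspindlin genes KIF23 and RACGAP1 had similar differences and ECT2 a smaller one. MKI67, the gene of the proliferation antigen Ki-67, was 6.40-fold lower, with the smallest adjusted p of the list (4.89e-08, limma). TOP2A, which encodes the topoisomerase that untangles chromosomes, had 12800 and 14479 against 3123 and 2747, a 4.65-fold lower level.

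**Figure D3:**
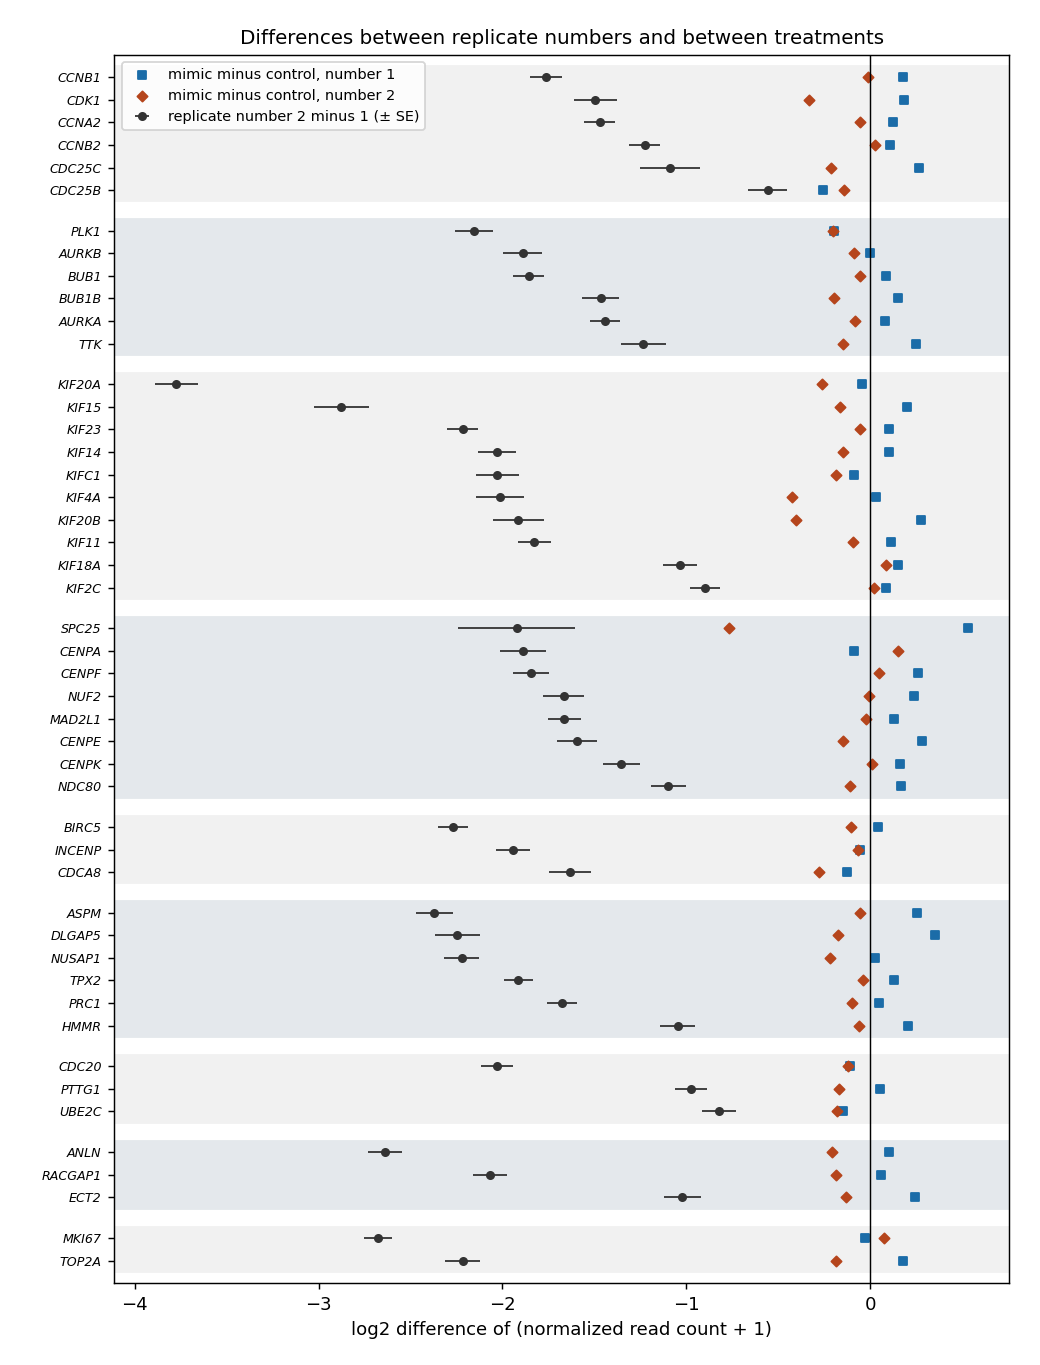
Log2 difference of (normalized read count + 1) for the 47 genes (y axis) between replicate number 2 and 1, with SE (black), and between mimic and control within replicate 1 (blue squares) and within replicate 2 (orange diamonds). Number differences run from -3.77 for KIF20A to -0.56 for CDC25B, while mimic differences within a number run from -0.77 to 0.53, both in SPC25.

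The unequal differences changed the order of the members. Per kilobase of annotated transcript, UBE2C (5433), CCNB1 (5303) and PTTG1 (4998) had the highest mean normalized levels in the replicate 1 libraries, and SPC25 (129) and KIF15 (178) the lowest. In the replicate 2 libraries UBE2C (3063), PTTG1 (2550) and CCNB1 (1554) were again the highest. ANLN went from rank 5 to rank 20 of 47, MKI67 from 22 to 35 and KIF20A from 32 to 44, whereas CDC25B went from rank 31 to rank 10. The order of close neighbours was not tested.

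At the transcript level the 47 genes held 282 transcripts. The leading transcript was the same in all 4 libraries for 41 genes, and the leading transcript over all libraries was protein-coding for all 47. Protein-coding transcripts held over 90% of the reads in every library for 41 genes. MAD2L1 was the main exception, with a transcript annotated for nonsense-mediated decay that held 40.0% and 41.3% of its reads in replicate 1 and 49.8% and 48.4% in replicate 2. Its reads there were 1048 and 1181 against 434 and 415, so this transcript was lower in replicate 2 as well. In CCNA2 the transcript ENST00000274026.10 held 64.9% of the reads in control 1 and 34.1% in control 2, against 89.2% in mimic 1 and 92.9% in mimic 2. Both mimic libraries lay above both controls, but the controls lay far apart, and this share was not tested. CCNA2 was singled out after its values were seen. Leading shares of other members also separated by treatment, higher in both mimics for NUF2 and lower in both for HMMR. How many members or transcripts did so was not counted. With protein-coding transcripts alone, all 47 genes were again called lower, with a median of -1.83.

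Promoters with and without the homology core both belonged to genes with large differences. The 33 members with a core had a median number difference of -1.89, from -2.88 to -0.56. The 8 members with a promoter entry and no core were AURKB, CCNA2, CCNB1, CENPE, CENPK, KIF20A, KIF2C and PTTG1, with a median of -1.53 and a range of -3.77 to -0.90. KIF20A, with the largest difference of the list, had 0 cores in its window.

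**Figure D4:**
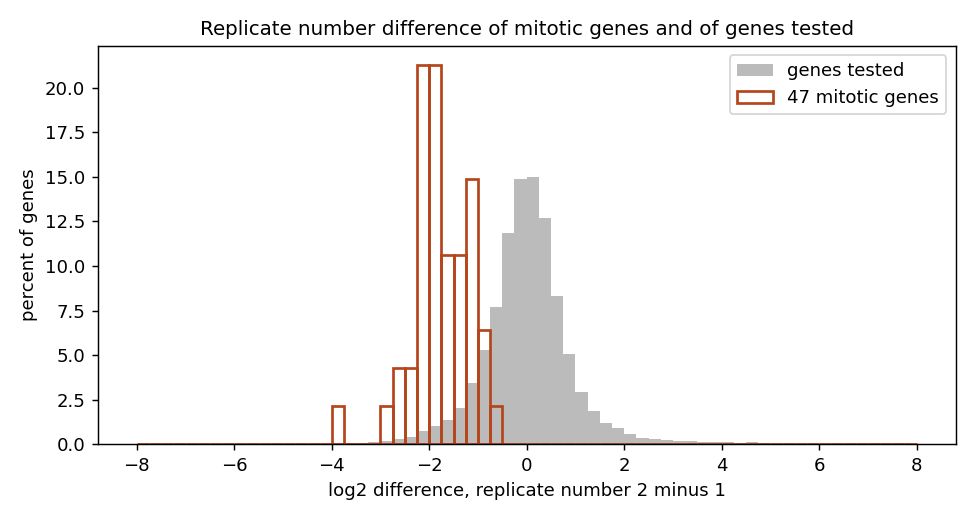
Percent of genes (y axis) by log2 difference between replicate number 2 and 1 (x axis, bins of 0.25) for all 16523 genes tested (grey) and the 47 mitotic genes (outlined). The mitotic genes lie between -3.77 and -0.56, left of the centre of all genes at 0.0078.

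Genes of neighbouring processes were set beside the list. Among other centromere and kinetochore genes, 30 of 32 were called lower and 0 higher in replicate 2, with a median of -1.28. HJURP, the chaperone that loads CENPA, was at -2.35 and CENPU at -2.28. Of 15 centrosome and other spindle genes all were called lower, with SPAG5 at -2.78 and the motor gene KIF22 at -2.19. Of 20 cohesin, condensin and separase genes 17 were called lower and 1 higher, and the condensin genes NCAPD2 and NCAPG were at -2.25 and -2.06. In the list of other cytokinesis genes 8 of 9 were lower and 1 higher, with CEP55, which directs final abscission, at -2.61 and the kinase CIT at -2.14.

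Further genes of the APC/C went in both directions. Of 17 genes for its core subunits, the E2 enzyme UBE2S, the activator FZR1 and an inhibitor, 10 were called lower and 3 higher, with a median of -0.36. FBXO5, which encodes the inhibitor EMI1, had 1510 and 1523 in replicate 1 and 451 and 437 in replicate 2, at -1.77, the lowest of this list. The subunit gene ANAPC16 had 1707 and 1799 against 3097 and 3069, a log2 difference of 0.81 in the other direction. Other kinesins, mostly motors for cargo transport, gave 6 lower and 7 higher of 23 tested, with a median of -0.06. These counts are near the background, since 24.2% of all genes tested were called lower and 26% higher. Among them KIF5A, a neuronal motor gene, was at 1.74 and KIF26B at 1.94. They were not tested against the 10 mitotic kinesins.

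Regulators of the mitotic programme gave 11 lower and 1 higher of 14, with a median of -1.30. MYBL2, which encodes the transcription factor B-MYB that joins the MMB complex, had 3133 and 2637 against 529 and 457, at -2.55. GTSE1 was at -2.22. DNA replication genes, which act earlier in the cell cycle, were called lower in 23 of 24, with a median of -1.97. TYMS was at -2.74 and ORC1 at -3.25. For these lists, as for the 47 genes, 24.2% of all genes tested were called lower.

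**Figure D5:**
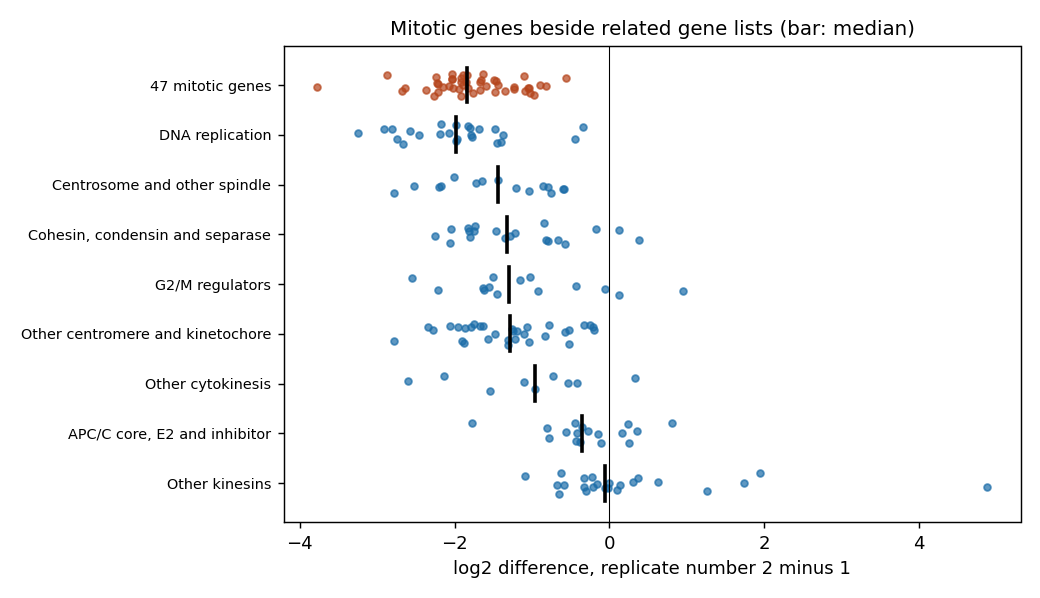
Log2 difference between replicate number 2 and 1 (x axis) for each tested gene of the 47 mitotic genes and of 8 related lists (y axis), with a bar at each median. Medians run from -1.97 for DNA replication genes to -0.06 for other kinesins, with the 47 mitotic genes at -1.84.

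The comparison of mimic with control asks whether the fragment changed these genes. No mitotic gene was called with limma, and 0% of all genes tested were called. None of the 47 had an unadjusted p under 0.05, and edgeR and DESeq2 on recovered reads also called 0 of 47, with 0 at an unadjusted p under 0.05. In 24 genes the mean log2 value was above and in 23 below that of the control, with a median of 0.0088 beside -0.014 over all genes tested. The differences ran from -0.20 to 0.15, and in all 47 genes the values of the 2 treatments overlapped. The median standard error was 0.91, since the difference between numbers counts as spread here, so changes of mitotic genes well above these values could not be called in this fit.

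On the higher side, the smallest p-values belonged to KIF18A, CENPF, NUF2 and HMMR. CENPF went from 10245 to 12272 within replicate 1 and from 3070 to 3174 within replicate 2, on average a log2 difference of 0.15 ± 0.91 (SE, n = 2 per group), the highest of the list. KIF18A went from 1903 to 2117 and from 950 to 1011, at 0.12, NUF2 was at 0.12 and HMMR at 0.07. On the lower side were CDC25B, UBE2C, CDCA8 and KIF4A. CDC25B went from 2968 to 2482 within replicate 1 and from 1937 to 1757 within replicate 2, at -0.20 ± 0.33, lower within both numbers by -0.26 and -0.14. UBE2C was at -0.16, with -0.15 and -0.18 within the numbers, CDCA8 at -0.20, with -0.13 and -0.28, and KIF4A at -0.20, with 0.03 and -0.43. None of these 8 differences was called, with adjusted p of 1.00 in limma, in a fit whose spread holds the difference between numbers. Ranking by p in this fit favours members with a small difference between numbers. PLK1, also at -0.20, is therefore not among the 8. With a replicate block in limma, the SE of CDC25B was 0.10 and its adjusted p 0.811.

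By role, the medians of mimic minus control were 0.03 for cyclins and CDC25 phosphatases, -0.01 for kinases, -0.0071 for kinesins and 0.06 for centromere and kinetochore genes. Passenger subunits were at -0.06, spindle microtubule genes at 0.06, anaphase ligase factors at -0.12, cytokinesis genes at -0.05 and chromosome genes at 0.01. Centromere and kinetochore genes had 7 of 8 differences above 0, while all 3 passenger and all 3 anaphase ligase genes were below 0. These medians were not tested.

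Within a number, where mimic and control were 1 library each and no replicate check exists, the signs differed. In replicate 1, 36 of 47 genes were higher in the mimic, with a median of 0.11, beside 49.3% of all genes. In replicate 2, 40 of 47 were lower, with a median of -0.12, beside 54.7% of all genes. SPC25 moved most, by 0.53 in replicate 1 and by -0.77 in replicate 2, on few reads. PLK1 differed by -0.20 in both numbers.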

How the data were processed

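Polyadenylated RNA of 4 U87 libraries was sequenced in pairs from a directional kit, per the labels' protocols. Kallisto, DESeq2 and hg38 stand in the submitters' processing notes, and versions and annotation are not given in the sources used here. The deposited signal is normalized reads per Ensembl transcript, which the authors divided by a size factor per library, as far as the values show. Within a tolerance of 0.1, 94.8% to 99.7% of values under 20 were whole multiples of 1 step per library, which gave recovered reads for edgeR and DESeq2. The step varies slightly between transcripts, so recovered reads are approximate.

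By identifier without version, 90627 of 100809 transcripts (89.9%) matched GENCODE release 29 and were summed over 22017 genes. The rest held 3.26% to 3.57% of each library's values. Genes were tested two-sided on log2(value + 1) by limma with its intensity trend, with a mean of at least 10 and Benjamini-Hochberg adjustment at 0.05 over 16523 genes, without a covariate. A fold change is on that scale and understates low genes. The same fit served the replicate number. With counts drawn from the data's means and a common dispersion, 2-fold changes were found by the number test for 96 of 100 genes, and 4-fold changes for 100 of 100, beside 16 false calls (16304 genes). The mimic test found 0 of 100 at either size once libraries also differed by number as observed (16335 genes). With a replicate block it found 99 of 100 at 2-fold and 100 of 100 at 4-fold, beside 6 false calls (16336 genes). Dispersions that differ between genes were not simulated, and genes with low means were not changed. Recovery in the data may therefore be lower, and false calls more frequent.

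Members and lists were chosen with earlier results of these data known. Named genes are, by role, the largest and smallest number difference (all where a role has at most 3), the 4 smallest mimic p on each side and the 2 smallest number p of each other list; others were named after their values were seen. Per-kilobase levels divide each transcript by its annotated length. Alternatives were pseudocounts 0.5 and 10, no filter or a mean of 50, other scalings and tools, coding transcripts only, a treatment or number term, GC correction and each library left out. R 4.3.3, limma 3.58.1, edgeR 4.0.16, DESeq2 1.42.0, Python 3.11.15, numpy 2.4.6, pandas 2.3.3 and matplotlib 3.10.9 were used.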

Additional observations from a re-analysis of the deposited data

Results flagged for a closer look

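The difference between the mimic and control libraries in the mitotic genes had opposite signs in the 2 numbers. The median log2 difference was 0.11 in replicate 1 and -0.12 in replicate 2. This drew attention because the single pair of libraries of each number moved the other way, and the difference was not tested, since each number has 1 library per treatment. Of the 47 genes, 31 were higher in the mimic in replicate 1 and lower in replicate 2, as were 27.0% of all genes tested, while 5 were higher and 9 lower in both. A lowess correction for transcript GC content, added after the data were seen, moved the medians to 0.057 and -0.11. The median GC content was 43.0% for the members and 48.2% for all genes tested.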

How the results depend on the processing

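Across every alternative run, all 47 mitotic genes were called lower in replicate 2, and 0 were called between mimic and control. The median number difference ran from -1.87 to -1.82 under other settings and from -1.88 to -1.71 with 1 library left out. The count of genes called between numbers ran from 7161 to 8892, and from 5360 to 8142 with 1 library left out, 5360 being without mimic replicate 2. The treatment term fitted with edgeR and the GC correction within numbers were added after the data were seen.

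With 1 library left out the numbers no longer balanced, so the number difference entered the mimic comparison. The members' median then ran from -0.95 to 0.92. Single genes were followed here only for the 8 named in the mimic comparison, and all 8 turned sign. CDC25B ran from -0.51 to 0.11, UBE2C from -0.59 to 0.26, CDCA8 from -1.06 to 0.65 and KIF4A from -1.32 to 0.93. KIF18A ran from -0.41 to 0.65, CENPF from -0.82 to 1.13, NUF2 from -0.78 to 1.01 and HMMR from -0.52 to 0.66.

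Deviations from the group means correlated within a number (r = 0.745 over genes, which are not independent), but the labels state no pairing. Between treatments, a replicate block gave 117 called genes in limma, 93 in edgeR and 2 in limma with the GC correction, and 0 of these were mitotic. The smallest adjusted p of a mitotic gene with the block was 0.811 (CDC25B) in limma, 0.914 in edgeR and 0.897 with the GC correction. In that limma fit, which pools its variance over all genes, the members' median SE was 0.10. Depth limits SPC25 most.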

Other observations

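Subunits shared by the DREAM and MMB complexes did not move together between the numbers. LIN9 had 341 and 376 in replicate 1 and 179 and 143 in replicate 2, a log2 difference of -1.15, and was called lower by limma. LIN37 had 239 and 185 against 377 and 439, at 0.95, and was called higher. LIN54 and LIN52 were at 0.13 and -0.06 and were not called. Of the pocket proteins, RBL1, which encodes p107, was at -1.50 and RBL2, which encodes p130, at -0.43. These genes were singled out after their values were seen.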
